A study of Mus musculus with 23 samples.

Results

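The 10 genes described here encode the troponins and tropomyosins of striated muscle: Tnni1, Tnni2, Tnnt1, Tnnt2, Tnnt3, Tnnc1, Tnnc2, Tpm1, Tpm2 and Tpm3. They were chosen by name, as the subunits of the calcium switch of the thin filament, out of 55573 genes in the count table. All 10 passed the filter on low counts. The quadriceps, a thigh muscle made mostly of fast fibers in the mouse, of 23 mice (strain C57Bl6 in the labels, C57BL/6J in the methods) had its RNA sequenced. Of the male mice, 6 carried a vehicle pellet and 6 a corticosterone pellet, and of the female mice 6 carried a vehicle pellet and 5 a corticosterone pellet. Pellets lay under the skin of the neck for 14 days and held 50 mg corticosterone, the main glucocorticoid of mice, with 50 mg cholesterol, or 100 mg cholesterol for vehicle. Mice of all 4 groups were 8 to 10 weeks old, had fasted for 5 h and carried no other agent or named allele. Mice are named by M or F and their number.

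Troponin sits on the actin filament together with tropomyosin, a coiled rod that covers the sites where myosin binds. Calcium binds troponin C, troponin I then lets go of actin, troponin T passes the change on to tropomyosin, and the rod moves aside so that the fiber can contract. Slow fibers and fast fibers use different genes for each subunit. Tnni1, Tnnt1 and Tnnc1 encode the slow forms, and Tnnc1 is also the troponin C of the heart. Tnni2, Tnnt3 and Tnnc2 encode the fast forms. Tnnt2 encodes the troponin T of the heart, which immature skeletal muscle also makes. Of the tropomyosins, Tpm1 is the main gene of fast fibers, Tpm3 that of slow fibers, and Tpm2 is used in both. The 3 tropomyosin genes also make shorter forms in other cells, which a count per gene cannot separate. In whole muscle, fewer fibers of a type and less RNA per fiber cannot be told apart.

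Each mouse had 20904150 to 21984477 read pairs on genes, and 3 counts came to at most 0.166 CPM, the unit of level used below (counts scaled to the size of the library). The defining markers of skeletal muscle (Acta1, Ckm, Ttn, Des, Mb and Myh4) were present in all mice and together held 56900 to 166000 CPM. The hepatocyte markers were uneven: 5 mice had over 1000 CPM over the 8 genes, which were M8, M9, M12, F6 and F10. Adipocyte markers reached 7110 CPM in F6. Erythrocyte markers were higher with corticosterone for 4 of 5 genes in both sexes, and endothelial and macrophage markers for 0 of 5 and 0 of 6. Labels do not say whether male and female samples were handled together, so sex and such a batch cannot be told apart. Replicates are mice by their labels.

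The fast genes were among the most abundant transcripts of the muscle. By mean CPM over all mice, Tnnt3 ranked 7, Tpm1 ranked 9, Tnnc2 ranked 11, Tnni2 ranked 16 and Tpm2 ranked 24 of all genes, while Tpm3 ranked 661, Tnnc1 989, Tnnt1 1050, Tnni1 1425 and Tnnt2 11220. The 10 genes took 6.64% ± 0.375 (SD, n = 6) of all gene counts in vehicle-treated males and 5.25% ± 0.562 (n = 6) in corticosterone-treated males. In females they took 6.74% ± 0.41 (n = 6) with vehicle and 4.61% ± 0.956 (n = 5) with corticosterone. The treated and vehicle-treated ranges of this share did not overlap in either sex, at 4.66% to 6.09% against 6.19% to 7.14% in males and 3.44% to 5.6% against 6.41% to 7.34% in females. Of single tested genes, 21.9% did not overlap in CPM in males and 7.72% in females. These CPM carry a normalization factor per library that the share lacks, so the measures are not alike. The share is a sum ruled by the abundant genes, of which Tnni2 and Tnnt3 had no lower mean CPM in treated males.

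Per kilobase of the median coding transcript, Tnnc2 (20140 ± 2223 CPM per kb, SD, n = 6) and Tnnt3 (19520 ± 944.9) led in vehicle-treated males and differed by less than their spread, while by the length of all exons joined Tnnc2 (17630 CPM per kb) was above Tnnt3 (12420). Tnni2 followed at 13100 ± 910.5 CPM per kb, Tpm1 at 10700 ± 2217 and Tpm2 at 3896 ± 1109. In vehicle-treated females the order was Tnnc2 (20630 ± 2966 CPM per kb), Tnnt3 (18660 ± 2934), Tpm1 (11850 ± 2262), Tnni2 (11400 ± 1290) and Tpm2 (3258 ± 646), where Tnnc2 and Tnnt3, and likewise Tpm1 and Tnni2, lay within each other's spread. By the joined exons Tnni2 (5846 CPM per kb in males, 5085 in females) was above Tpm1 (2710 and 3001) in both sexes, so these orders depend on the length used. The slow genes lay far below on this scale, with means of 146.6 to 251.3 CPM per kb in vehicle-treated males and SDs above their means. Tnnt2 was lowest, at 1.379 ± 0.8134 CPM per kb in vehicle-treated males.

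In the genome (GRCm38, mm10) the members form 2 close pairs and 6 lone genes. Other genes between the members of a pair were not looked for. Tnni1 (ENSMUSG00000026418, chromosome 1, 135779434 to 135810989, plus strand) and the cardiac Tnnt2 (ENSMUSG00000026414, 135836354 to 135852260, plus strand) lie close to each other. The fast genes Tnni2 (ENSMUSG00000031097, chromosome 7, 142441808 to 142444410, plus strand) and Tnnt3 (ENSMUSG00000061723, 142498836 to 142516009, plus strand) do so as well. Tnnt1 (ENSMUSG00000064179, 4504570 to 4516382, minus strand) lies far away on chromosome 7. Tnnc1 (ENSMUSG00000091898) spans 31208312 to 31211729 on the plus strand of chromosome 14, and Tpm3 (ENSMUSG00000027940) spans 90072649 to 90100902 on the plus strand of chromosome 3. Tnnc2 (ENSMUSG00000017300) spans 164777161 to 164779967 on the minus strand of chromosome 2, Tpm2 (ENSMUSG00000028464) spans 43514711 to 43523765 on the minus strand of chromosome 4, and Tpm1 (ENSMUSG00000032366) spans 67022590 to 67049406 on the minus strand of chromosome 9.

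The slow genes split the 23 mice into 2 sets that crossed all 4 groups. Tnni1 was at 0.141 to 14.3 CPM in 14 mice and at 75.5 to 367 CPM in the other 9. Tnnt1 was at 0.309 to 19.8 CPM in the same 14 mice and at 96.5 to 524 CPM in the same 9. Tnnc1 was at 0.376 to 15.1 CPM and 91.6 to 608 CPM, so that its highest mouse had 1620-fold the level of its lowest (M9, 8 counts). Tpm3 had a higher floor, with 16.8 to 52.9 CPM in the 14 mice and 113 to 917 CPM in the 9, a 54.6-fold range. The 9 mice were M3 and M5 of the vehicle-treated males, M6 and M10 of the corticosterone-treated males, F3 and F5 of the vehicle-treated females, and F2, F8 and F10 of the corticosterone-treated females. The limit of 50 CPM of Tnni1 that separates the sets was set after the values were seen, and it defines no group of the study.

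Of 15 listed slow fiber genes outside the family, 5 (Myh7, Myl2, Myl3, Atp2a2 and Myoz2) were higher in each of these 9 mice than in any of the 14, and the ranges of the other 10 overlapped between the sets. Myh7, the myosin heavy chain of slow fibers, was at 0.094 to 48.3 CPM in the 14 mice and 236 to 1630 CPM in the 9. Myl2 and Myl3, light chains of slow fibers and the heart, were at 0.188 to 43.8 and 0.094 to 76.4 CPM in the 14 mice, and at 216 to 751 and 161 to 813 CPM in the 9. Atp2a2 was at 29.3 to 119 CPM in the 14 mice and 302 to 1240 CPM in the 9. Myoz2 was separated only narrowly, with 0.94 to 144 CPM in the 14 mice and 146 to 484 CPM in the 9. Ranges of Myh2, the heavy chain of type 2A fibers, overlapped between the sets (18.2 to 1870 against 526 to 4620 CPM). So did those of Myh4, the heavy chain of type 2B fibers (24400 to 57800 against 13200 to 37900 CPM). Mybph, a myosin-binding protein, was at 41.2 to 1410 CPM in the 14 mice and 155 to 1160 CPM in the 9. The genes in this paragraph were chosen after their values were seen. The share of all tested genes without overlap between these sets was not computed, so 5 of 15 is only a description.

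Since the slow genes spread so widely within each group, their group values are given per mouse. Among vehicle-treated males Tnni1 ran from 0.141 CPM (M9, 3 counts) over a median of 2.08 to 328 CPM (M3), and among corticosterone-treated males from 0.221 (M8) over 1.72 to 223 CPM (M6). Among vehicle-treated females Tnni1 ran from 0.586 (F9) over 5.21 to 367 CPM (F3), and the 5 corticosterone-treated females had 288 (F2), 3.66 (F4), 14.3 (F6), 84.0 (F8) and 79.1 CPM (F10). The groups overlapped in both sexes. The median of the treated females lay among the high mice and those of the other 3 groups among the low ones.

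**Figure D1:**
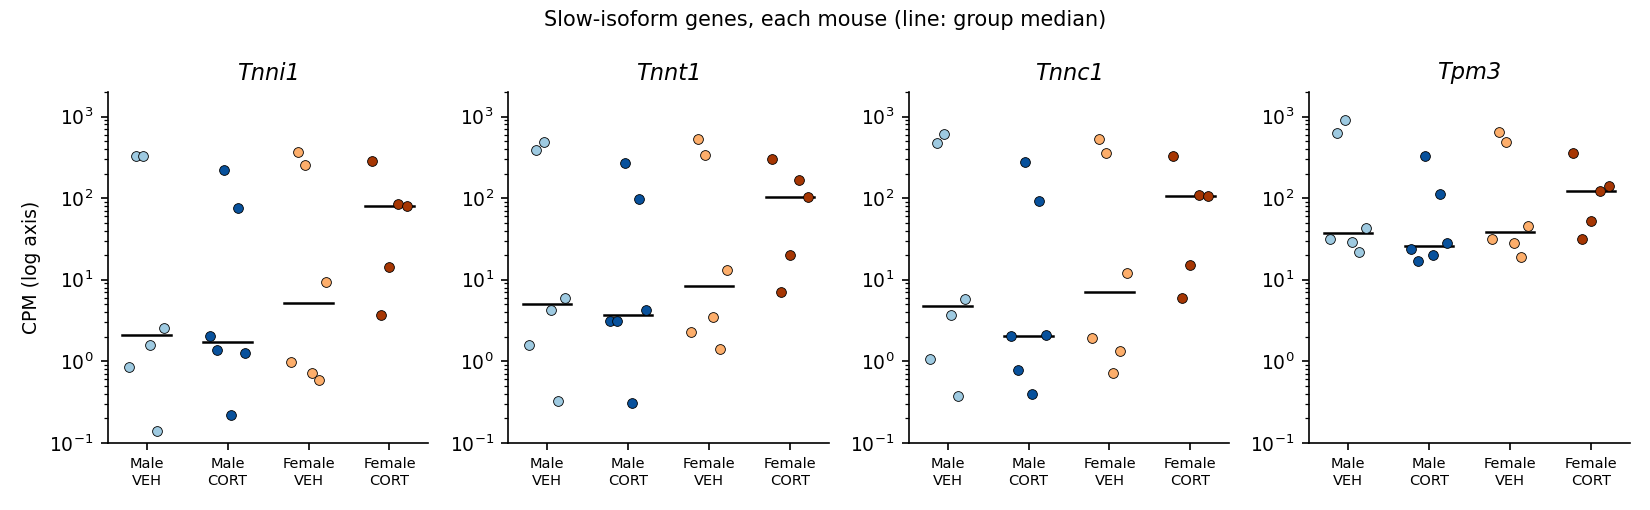
CPM of Tnni1, Tnnt1, Tnnc1 and Tpm3 (log axis) in each mouse by group, with a line at the group median. Each group holds 2 or 3 mice far above the rest, and the same mice are high for all 4 genes.

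The plot of the slow genes by mouse shows a gap without mice between 14.3 and 75.5 CPM for Tnni1, and a gap at the matching place for the other 3. Tnnt1 had medians of 5.05 CPM and 3.65 CPM in vehicle- and corticosterone-treated males, and of 8.37 CPM in vehicle-treated females. The 5 treated females had 305 (F2), 7.08 (F4), 19.8 (F6), 168 (F8) and 105 CPM (F10) of Tnnt1. Tnnc1 had medians of 4.70, 2.07 and 7.06 CPM in the same 3 groups, and the treated females had 332 (F2), 5.88 (F4), 15.1 (F6), 109 (F8) and 105 CPM (F10) of it. Tpm3 had medians of 37.0, 26.0 and 38.4 CPM, and 359, 31.3, 52.9, 124 and 140 CPM in those 5 females. Reads that Tpm3 shares with its near copies Tpm3-rs7 (0 to 52 counts) and Tpm3-rs2 (0 counts in every mouse) would be lost where they aligned to more than 1 gene, so its level is uncertain.

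No slow gene passed the test of corticosterone against vehicle in either sex. In males the log2FC of Tnni1 was -1.12 (SE 1.72, adjusted p = 0.632), that of Tnnt1 -1.24 (SE 1.64, adjusted p = 0.572), that of Tnnc1 -1.54 (SE 1.75, adjusted p = 0.507) and that of Tpm3 -1.67 (SE 1.11, adjusted p = 0.242) by the edgeR quasi-likelihood test, Benjamini-Hochberg adjusted. In females the 4 values lay between -0.563 for Tpm3 (SE 1.14) and -0.167 for Tnni1 (SE 1.78), with adjusted p of 0.756 to 0.957 in the same edgeR test. The standard errors were above 1 on the log2 scale, so changes of several fold could not be detected in these groups. The direction depended on single mice: without F3 that of Tnni1 in females was 0.828, without F5 0.306, without F4 0.143 and without F6 0.0884, and those of Tnnt1 without F3, F5 and F4 were 0.760, 0.149 and 0.0236. For Tnnc1 it was 0.602 without F3 and 0.0532 without F5, and for Tpm3 0.227 without F3, none past the threshold. The direction depended on the method as well. With all mice kept, limma-voom gave females 3.19 for Tnni1, 2.6 for Tnnt1, 2.97 for Tnnc1 and 1.11 for Tpm3, also not past the threshold.

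Setting each slow gene against its fast partner within a mouse removes the scaling of libraries. The slow form made up 0.00138% to 4.45% of the troponin I counts per kilobase (Tnni1 of Tnni1 and Tnni2), 0.00207% to 4.23% of troponin T (Tnnt1 of Tnnt1 and Tnnt3) and 0.00226% to 4.11% of troponin C (Tnnc1 of Tnnc1 and Tnnc2). With the length of all exons joined instead, a length chosen after seeing the data, the highest shares were 2.13%, 2.42% and 3.28%. The fast form prevailed for each subunit in every mouse by both lengths. For troponin C the median share was 0.035% in vehicle-treated and 0.0168% in corticosterone-treated males, and 0.0504% in vehicle-treated females. The 5 corticosterone-treated females had 3.21% (F2), 0.0509% (F4), 0.219% (F6), 0.945% (F8) and 1.62% (F10).

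**Figure D2:**
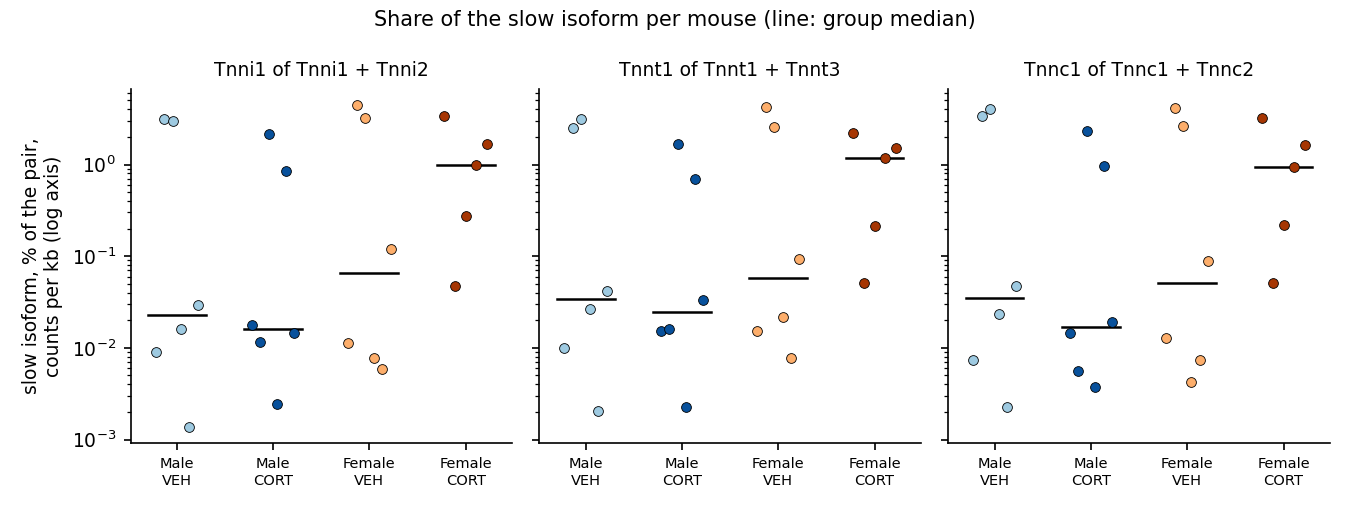
Share of the slow gene in the counts per kilobase of each troponin subunit, in percent on a log axis, per mouse and group, with a line at the group median. For troponin C the 14 mice low for the slow genes lay at 0.00226% to 0.219%, and the other 9 at 0.945% to 4.11%.

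The plot of slow shares repeats the same split of mice for all 3 subunits. The difference in the mean log2 ratio of slow to fast between corticosterone- and vehicle-treated females was 2.56 for troponin I (two-sided exact permutation test, n = 5 and 6, p = 0.264, adjusted p = 0.58), 2.17 for troponin T (exact p = 0.29) and 2.69 for troponin C (exact p = 0.251). These differences in females have the opposite sign to the edgeR log2FC of Tnni1, Tnnt1 and Tnnc1, so the direction in females is not settled. In males the differences were -0.381, -0.522 and -0.714 (exact p = 0.823, 0.784 and 0.708). Between corticosterone-treated males and females they were -3.56, -3.31 and -3.49 (exact p = 0.104, 0.113 and 0.117, adjusted p = 0.468 each), and between vehicle-treated males and females -0.623, -0.619 and -0.0911 (exact p = 0.777, 0.749 and 0.955). None of the 12 comparisons passed, where the smallest p possible was 0.00216 for 6 against 6 mice and 0.00433 for 6 against 5. The differences in males were 0.442, 0.358 and 0.00844 without M8, and those between vehicle-treated mice were 0.479, 0.421 and 1.03 without F3, so 1 mouse turned their direction.

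Correlations within each set are given as a description, since the sets were formed by the level of Tnni1 after its values were seen. Over the 9 mice with high slow genes, Pearson's r of log2 CPM less the group mean was 0.916 to 0.991 and Spearman's rho 0.833 to 0.983 for the 6 pairs of Tnni1, Tnnt1, Tnnc1 and Tpm3. The exact permutation p of r ranged from 0.0208, the smallest that 48 permutations within groups allow, to 0.0833 (adjusted 0.0833), and that of rho reached 0.125, so no relation in this set could pass 0.01. Over the 14 mice with low slow genes r was 0.719 to 0.944 and rho 0.785 to 0.908 (exact permutation p of r at most 0.0122, adjusted at most 0.0182, and of rho at most 0.00666). Without the 2 mice farthest from the median, r was 0.777 to 0.972 in the 9 mice and 0.627 to 0.927 in the 14. In all, 18 relations were computed, and the points share their libraries.

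The slow genes were all high in the same 9 mice. The windows around the start sites of a pair of them, Tnnc1 and Tnnt1, are shown as examples. They run from 250 bases before to 50 bases after the start, from RefSeq on GRCm38.p6, with matches in capitals on either strand to the E-box CANNTG (the motif bound by MyoD and its relatives) and the MCAT motif CATTCC (bound by TEAD factors).
Tnnc1, chr14:31208062-31208361, plus strand: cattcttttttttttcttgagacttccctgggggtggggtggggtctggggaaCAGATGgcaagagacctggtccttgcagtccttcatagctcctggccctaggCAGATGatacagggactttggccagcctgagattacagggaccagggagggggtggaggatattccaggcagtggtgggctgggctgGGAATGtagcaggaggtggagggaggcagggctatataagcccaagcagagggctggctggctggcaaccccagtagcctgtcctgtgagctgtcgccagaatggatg
Tnnt1, chr7:4515926-4516225, minus strand: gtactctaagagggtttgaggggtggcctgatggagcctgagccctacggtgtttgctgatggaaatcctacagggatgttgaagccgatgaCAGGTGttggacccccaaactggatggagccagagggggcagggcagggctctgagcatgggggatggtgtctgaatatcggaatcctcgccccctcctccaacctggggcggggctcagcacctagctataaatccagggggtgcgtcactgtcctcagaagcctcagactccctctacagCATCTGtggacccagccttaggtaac
Tnnc1 held 2 E-box matches and 1 MCAT match, and Tnnt1 held 2 E-box matches. The windows of the slow genes Tnni1 and Tpm3, not shown, held E-box matches but no MCAT match. An E-box match was present in 72.3% and an MCAT match in 14.7% of all 32851 windows of this length. The E-box reads alike on both strands and did not overlap the MCAT matches shown here.

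The fast genes varied far less between mice. Tnni2 ran from 7825 (M11) over a median of 8887 to 9532 CPM (M5) in vehicle-treated males, and from 7731 (M12) over 8575 to 10760 CPM (M4) in corticosterone-treated males, so the treated range enclosed that of vehicle. In vehicle-treated females Tnni2 ran from 6741 (F5) over 7348 to 8985 CPM (F9). The 5 treated females had 7281 (F2), 6878 (F4), 4657 (F6), 7507 (F8) and 4091 CPM (F10), where F6 and F10 lay below all vehicle-treated females. The log2FC of Tnni2 was 0.04 (SE 0.14, adjusted p = 0.858) in males and -0.32 (SE 0.147, adjusted p = 0.107) in females by the edgeR quasi-likelihood test, Benjamini-Hochberg adjusted. The male value was -0.00966 without M2 and -0.0224 without M4.

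Tnnt3, the fast troponin T, ran from 18020 (M11) over 19960 to 20480 CPM (M1) in vehicle-treated males. With corticosterone it spread from 16280 (M12) over 18970 to 25870 CPM (M2). In vehicle-treated females it ran from 15200 (F3) over 18710 to 23310 CPM (F9). The treated females had 17130 (F2), 17710 (F4), 11930 (F6), 18020 (F8) and 8799 CPM (F10) of Tnnt3, with F6 and F10 again lowest and the other 3 inside the vehicle range. The log2FC was 0.05 (SE 0.163, adjusted p = 0.825) in males, and -0.03 without M2 and -0.01 without M4. In females it was -0.35 (SE 0.172, adjusted p = 0.134 by the edgeR quasi-likelihood test, Benjamini-Hochberg adjusted).

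Tnnc2, the fast troponin C and the calcium sensor of fast fibers, was the 1 member whose treated females all lay below all vehicle-treated females. Vehicle-treated females ran from 12010 (F3) over 14150 to 17290 CPM (F9), and treated females had 9712 (F2), 11210 (F4), 6679 (F6), 11090 (F8) and 6199 CPM (F10). Tnnc2 fell to 0.622-fold (log2FC -0.69, SE 0.162, adjusted p = 0.00384, lower in 5 of 5 mice than the vehicle mean, edgeR quasi-likelihood test, Benjamini-Hochberg adjusted). In males Tnnc2 ran from 11850 (M11) over 14190 to 16130 CPM (M9) with vehicle and from 9149 (M10) over 10970 to 13800 CPM (M2) with corticosterone. The male groups overlapped, although all 6 treated males lay below the vehicle mean, and the log2FC was -0.30 (SE 0.152, adjusted p = 0.125 in the same edgeR test). The sexes' responses differed by 0.39 on the log2 scale (SE 0.221, interaction term, adjusted p = 0.229), so a difference between them was not detected.

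The call of Tnnc2 in females depended on single mice. Without F7, F9, F6 or F10 the log2FC was -0.65, -0.63, -0.61 and -0.60, and the edgeR adjusted p rose to 0.0105, 0.0104, 0.0141 and 0.0113. F6 and F10 held 1091 and 2383 CPM of hepatocyte markers and 7111 and 3515 CPM of adipocyte markers. Over whole groups, the 8 hepatocyte markers summed to 37.2 to 305 CPM in vehicle-treated and 54.5 to 2380 CPM in treated females, and the 7 adipocyte markers to 518 to 2760 and 775 to 7110 CPM. All 8 and all 7 passed the filter, with 0 and 2 of them (Lep and Plin4) higher in treated females, and apart from Lep in vehicle-treated females none was at 0 in a mouse. The skeletal muscle markers were lowest in the same 2 mice, at 76270 CPM in F6 and 56890 CPM in F10. F2 held more adipocyte markers than F10 (3843 CPM), with 9712 CPM of Tnnc2. Of the males with over 1000 CPM of hepatocyte markers, M9 (1436 CPM) had the highest Tnnc2 of its group (16130 CPM). M8 (10390 CPM of Tnnc2) and M12 (10570 CPM) lay below the median of theirs (10970 CPM). The part of these cell types in the values of Tnnc2 was not tested. Without the 5 mice with over 1000 CPM of hepatocyte markers the log2FC of Tnnc2 was -0.45 (edgeR adjusted p = 0.0575). Reads of Tnnc2 share 592 exon bases with Ube2c on the other strand, but Ube2c had 24 to 58 counts and counting used the strand.

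Tpm1, the tropomyosin of fast fibers, had the lowest fitted fold among the fast genes. In vehicle-treated females it ran from 15980 (F11) over 18840 to 24820 CPM (F9). The treated females had 10440 (F2), 16750 (F4), 6837 (F6), 10500 (F8) and 4902 CPM (F10), so 4 of 5 lay below all vehicle-treated mice and F4 lay among them. The log2FC was -0.98 (SE 0.267, 0.508-fold), and the edgeR adjusted p of 0.0102 missed the threshold of 0.01. It passed without M2 (adjusted p = 0.0079), M8 (0.00908), M10 (0.00931), F3 (0.00982) or F4 (0.00114), and without F4 the log2FC was -1.25. The log2FC was -0.823 without F10 and -0.647 without the 5 mice with over 1000 CPM of hepatocyte markers (edgeR adjusted p = 0.104). In males Tpm1 ran from 13980 (M11) over 17560 to 21900 CPM (M9) with vehicle and from 7715 (M10) over 10970 to 17990 CPM (M2) with corticosterone. The male log2FC was -0.59 (SE 0.251, adjusted p = 0.0673 in the same edgeR test), with 5 of 6 treated males below the vehicle mean.

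Tpm2, the tropomyosin used in slow and fast fibers, came nearest to the threshold in males. It ran from 4215 (M1) over 6285 to 8425 CPM (M3) in vehicle-treated males and from 2939 (M8) over 3984 to 4647 CPM (M6) in treated males. All 6 treated males lay below the vehicle mean, while M1 and M9 (4562 CPM) of the vehicle group lay inside the treated range. The log2FC was -0.70 (SE 0.211, adjusted p = 0.0116, edgeR quasi-likelihood test, Benjamini-Hochberg adjusted). It passed without M1 (adjusted p = 0.00591), M9 (0.00746), F6 (0.00669) or F8 (0.00598). In females Tpm2 ran from 3921 (F9) over 5081 to 6915 CPM (F11) with vehicle, and treated females had 3606 (F2), 4916 (F4), 2488 (F6), 6677 (F8) and 4168 CPM (F10), with a log2FC of -0.28 (SE 0.221, adjusted p = 0.366).

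The smooth muscle markers, which belong to a cell type that also uses Tpm1 and Tpm2, summed to 654 to 996 CPM in vehicle-treated and 743 to 1270 CPM in treated males. In females they summed to 690 to 1060 and 792 to 1150 CPM. Of the 8 markers 1 rose and 1 fell in males, and 0 rose and 1 (Smtn) fell in females. Their part in the values of Tpm1 and Tpm2 was not tested.

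Tnnt2, the cardiac troponin T, was rare and was the 1 member with a positive log2FC beyond 1 in each sex. It ran from 0.564 (M9) over 1.47 to 2.86 CPM (M11) in vehicle-treated males and from 1.72 (M8) over 3.31 to 5.17 CPM (M10) in treated males, on 12 to 109 counts. All 6 treated males lay above the vehicle mean, but the ranges overlapped. The log2FC was 1.16 (SE 0.443, adjusted p = 0.0407, edgeR quasi-likelihood test, Benjamini-Hochberg adjusted), above the threshold of 0.01. In females Tnnt2 ran from 0.489 (F9) over 1.23 to 3.13 CPM (F11) with vehicle, and the treated mice had 2.68 (F2), 0.723 (F4), 2.95 (F6), 3.69 (F8) and 4.77 CPM (F10). The female log2FC was 1.04 (SE 0.459, adjusted p = 0.0964), with 4 of 5 treated mice above the vehicle mean. The cardiac markers together held 1.63 to 11.2 CPM in any mouse. Of the 7, Nkx2-5 was at 0 in all 23 mice, Nppa was at 0 in all but the treated females, where its highest value was 0.0404 CPM, and Tnni3, the cardiac troponin I, had 0 to 13 counts.

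**Figure D3:**
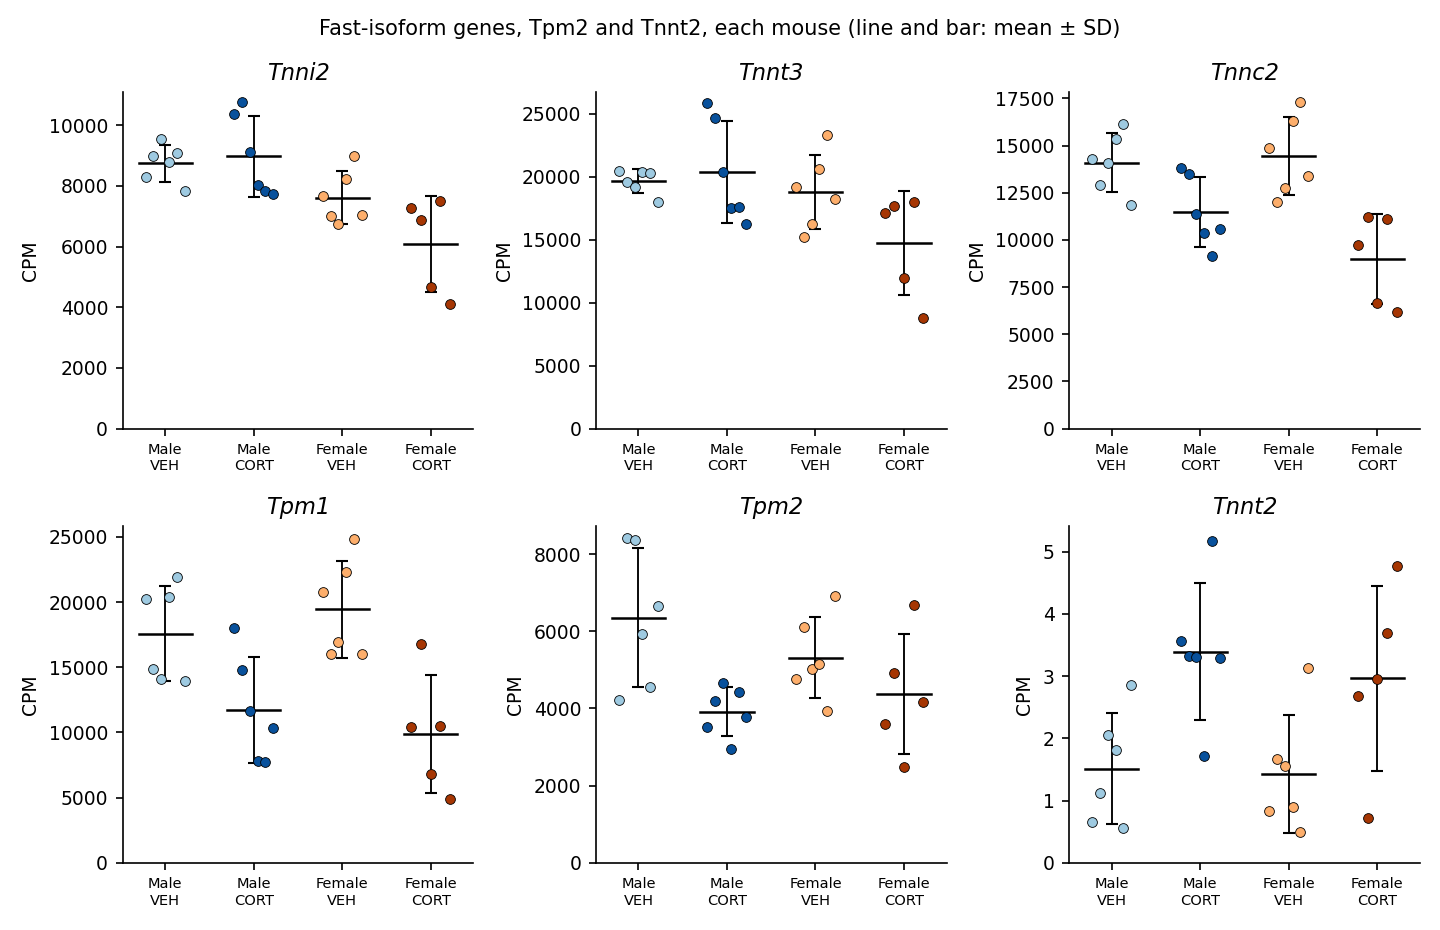
CPM (linear axis from 0) of Tnni2, Tnnt3, Tnnc2, Tpm1, Tpm2 and Tnnt2 in each mouse by group, with lines and bars for the mean ± SD. Tnnc2 of the 5 corticosterone-treated females (6199 to 11210 CPM) lies below that of all 6 vehicle-treated females (12010 to 17290 CPM), and in the other panels corticosterone overlaps with vehicle within each sex.

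In the plot of these 6 genes, Tnni2 and Tnnt3 kept similar heights in the male groups while Tnnc2, Tpm1 and Tpm2 were lower on average with corticosterone. Over all 10 members, 0 passed the edgeR test in males, where 26.3% of the 13049 tested genes did, and 3 (Tnnt2, Tpm1 and Tpm2) had an unadjusted p under 0.05. In females 1 (Tnnc2) passed, where 13.4% of tested genes did. An unadjusted p under 0.05 was found for 4 members (Tnni2, Tnnt2, Tnnc2 and Tpm1) there. With so few members these counts are not a result about the family. The median log2FC of the 10 was -0.64 in males and -0.34 in females, beside -0.02 and 0.04 over all tested genes. It was -1.39 and -0.35 for the 4 slow genes, and -0.13 and -0.52 for the 4 fast genes (Tnni2, Tnnt3, Tnnc2 and Tpm1). The slow genes had SEs above 1, and limma-voom gave Tnni1, Tnnt1 and Tnnc1 positive values in both sexes. The medians therefore do not show a fall of the family. Groups without overlap were found for 0 members in males (21.9% of all tested genes) and for 1 in females (7.72%), and between vehicle-treated males and females for 0 (2.55%).

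**Figure D4:**
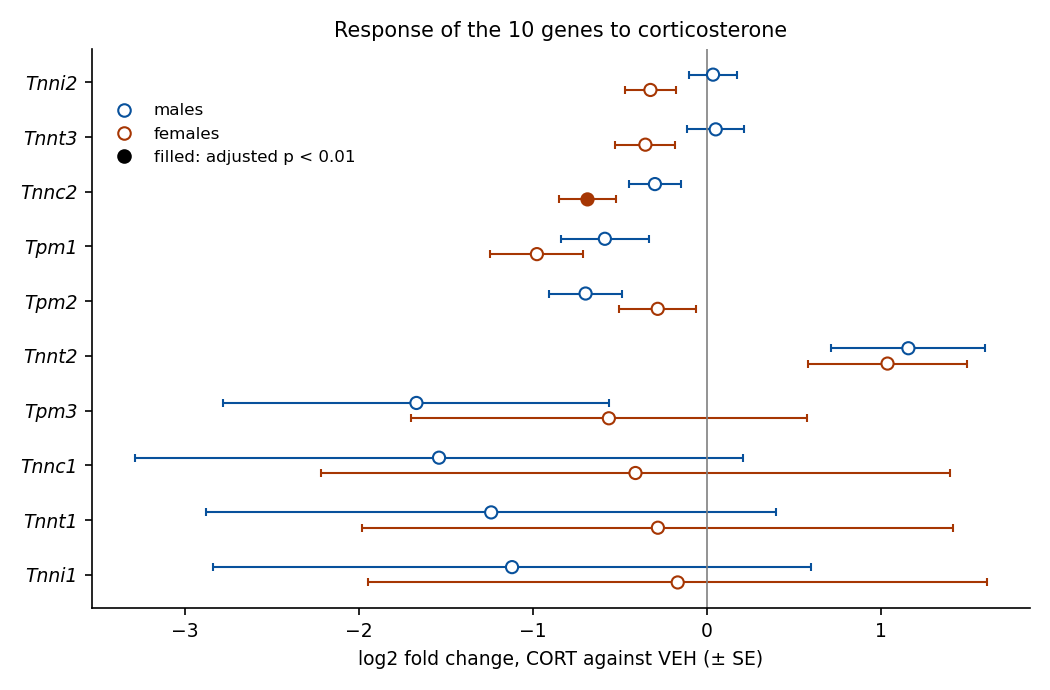
Log2 fold change of each gene between corticosterone- and vehicle-treated mice (edgeR), with bars of 1 SE, for males (blue) and females (brown). Slow genes have SEs above 1, and Tnnc2 in females is the 1 filled point, at -0.69.

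The plot of responses sets the sexes side by side. For Tnni2, Tnnt3, Tnnc2 and Tpm1 the female value lay below the male value, and for Tpm2 above it. The interaction of sex and treatment was past the threshold for 0 members by edgeR, with 0 at an unadjusted p under 0.05 and 0 past the threshold by DESeq2 or limma-voom, where 0.690% of all tested genes passed. The lowest adjusted p was that of Tnni2 (difference 0.36, SE 0.203, adjusted p = 0.222).

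Between the sexes, 0 members differed in vehicle-treated mice by edgeR (0.958% of tested genes did), with 0 at an unadjusted p under 0.05 and 0 past the threshold by DESeq2 or limma-voom. In corticosterone-treated mice 1 member, Tnni2, differed and was higher in males, where 23.3% of tested genes differed. All 6 treated males (7731 to 10760 CPM) lay above all 5 treated females (4091 to 7507 CPM), with a log2FC of 0.56 (SE 0.148, adjusted p = 0.00525, edgeR quasi-likelihood test, Benjamini-Hochberg adjusted). Such groups without overlap were found for 12.4% of all tested genes. Tnni2 fell short of the threshold without M2 (log2FC 0.52, adjusted p = 0.0134), M4 (0.50, 0.0157), M6 (0.56, 0.0104), F6 (0.50, 0.0167) or F10 (0.47, 0.0151). Without the 5 mice with over 1000 CPM of hepatocyte markers it was 0.43 (edgeR adjusted p = 0.0433). Adipocyte markers summed to 987 to 1500 CPM in treated males and to 775 to 7110 CPM in treated females. Fibroblast markers did not overlap between these groups (341 to 517 against 550 to 1140 CPM, 6 of 7 lower in males), and 5 of 6 macrophage markers were lower in males (sums of 48.8 to 72.7 against 67.2 to 213 CPM). The part of these cell types in the result was not tested. Tnnt3 had a log2FC of 0.47 (adjusted p = 0.035) and Tnnc2 of 0.35 (adjusted p = 0.0851) in the same edgeR comparison, both with overlap.

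The fast genes also followed each other from mouse to mouse. Over the 23 mice, r of log2 CPM less the group mean was 0.80 to 0.945 and rho 0.732 to 0.929 for the 6 pairs of Tnni2, Tnnt3, Tnnc2 and Tpm1 (permutation p of r at most 0.00033, adjusted at most 0.00093, and of rho at most 0.00124). Without the 2 mice farthest from the median r was 0.718 to 0.926. The points share their libraries.

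Ratios within a mouse do not depend on how libraries are scaled. Tnni2 to Tnnt3, the close pair on chromosome 7, had a ratio of counts of 0.446 ± 0.0311 (SD, n = 6) in vehicle-treated and 0.444 ± 0.0248 (n = 6) in treated males. In females this ratio was 0.408 ± 0.0287 (n = 6) and 0.417 ± 0.0312 (n = 5), with overlap in both sexes. Tnni2 to Tnnc2 ran from 0.563 to 0.696 in vehicle-treated males and from 0.732 to 0.855 in treated males. In females the ratio ran from 0.505 to 0.585 with vehicle, and treated females had 0.75 (F2), 0.613 (F4), 0.697 (F6), 0.677 (F8) and 0.66 (F10). Treated mice of both sexes, F6 and F10 included, thus had less Tnnc2 for the same Tnni2, without overlap. Tnnt3 to Tpm1 was 1.15 ± 0.192 in vehicle-treated and 1.82 ± 0.351 in treated males without overlap, and 0.973 ± 0.084 and 1.59 ± 0.304 in females, where F4 (1.06) lay inside the vehicle range. Of the 10 pairs among the 5 most abundant members, 3 did not overlap in males and 2 in females. Among all pairs of the 100 most abundant genes 37.2% and 21.6% did not overlap, so such ratios are not particular to the family, and no test was made.

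**Figure D5:**
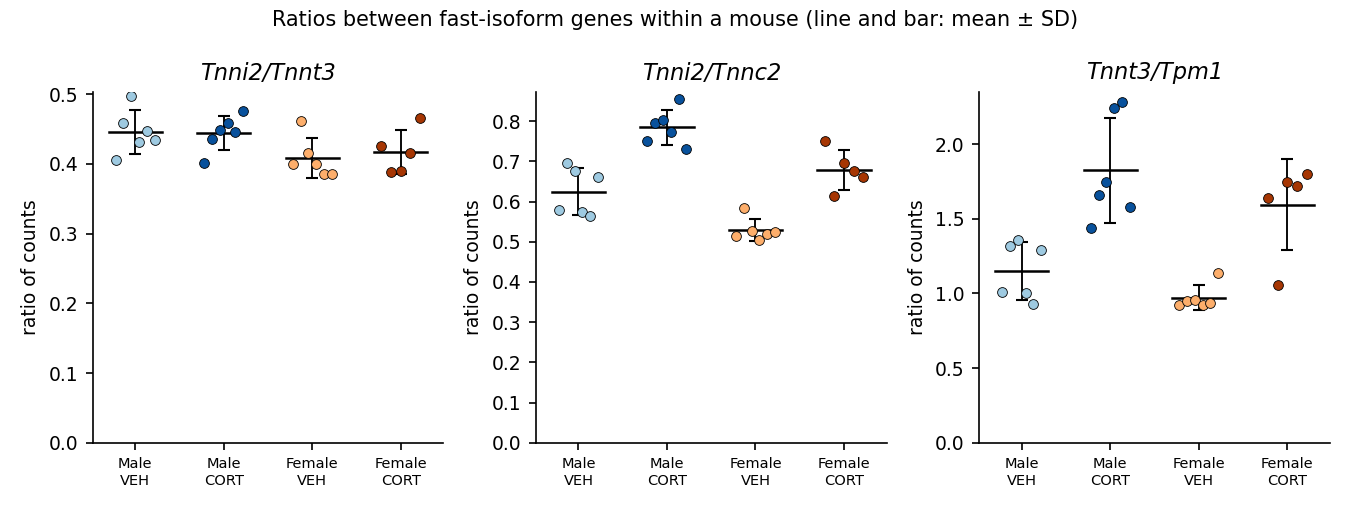
Ratio of counts within each mouse (linear axis from 0) for Tnni2 to Tnnt3, Tnni2 to Tnnc2 and Tnnt3 to Tpm1, by group, with the mean ± SD. The first ratio overlaps between treated and vehicle-treated mice, and the second does not in either sex (0.563 to 0.696 against 0.732 to 0.855 in males).

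The plot of ratios shows Tnni2 to Tnnt3 level across the 4 groups beside the shifted Tnni2 to Tnnc2. The windows of Tnnc2 and Tpm1, which were lower relative to Tnni2 or Tnnt3, are printed for that reason, with E-box and MCAT matches in capitals as above. The table of windows at hand held 8 of the 10 members, not Tnni2 and Tnnt3.
Tnnc2, chr2:164779685-164779984, minus strand: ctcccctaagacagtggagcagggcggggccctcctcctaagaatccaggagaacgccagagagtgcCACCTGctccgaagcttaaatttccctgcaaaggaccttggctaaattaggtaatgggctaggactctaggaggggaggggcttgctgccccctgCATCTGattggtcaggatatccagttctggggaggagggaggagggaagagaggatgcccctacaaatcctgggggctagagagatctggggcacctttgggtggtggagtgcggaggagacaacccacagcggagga
Tpm1, chr9:67049164-67049463, minus strand: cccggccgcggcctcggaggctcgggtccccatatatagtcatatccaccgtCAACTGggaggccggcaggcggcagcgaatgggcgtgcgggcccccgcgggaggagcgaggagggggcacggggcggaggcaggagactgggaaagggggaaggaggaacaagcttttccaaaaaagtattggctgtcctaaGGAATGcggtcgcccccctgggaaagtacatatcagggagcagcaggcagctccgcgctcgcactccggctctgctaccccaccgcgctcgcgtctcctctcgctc
Tnnc2 held 2 E-box matches, and Tpm1 held 1 E-box and 1 MCAT match. The full glucocorticoid response element, searched on both strands as AGAACA and TGTTCT set 3 bases apart, was in 0.00913% of all windows and in none of the windows of the 8 members. Its first part AGAACA alone, on either strand, was in 19.0% of all windows, in those of Tnni1 and in 1 of Tnnt2, and in none of the other members' windows. The MEF2-like motif, searched as CTA and TAG set 4 bases apart, was in 3.69% of all windows and in none of those of the 8 members.

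Of 20 tested of 21 other genes of the thin filament, 2 rose and 3 fell in males, and 0 rose and 2 fell in females by edgeR's quasi-likelihood test, near the 26.3% and 13.4% of all tested genes that passed. Actc1, the actin of the heart and of immature muscle, fell in both sexes (log2FC -3.75, SE 0.681, adjusted p = 0.000185 in males and -3.14, SE 0.711, adjusted p = 0.00283 in females). Tpm4, a tropomyosin of non-muscle cells, fell in males (log2FC -0.85, adjusted p = 0.000328) and had -0.04 (adjusted p = 0.892) in females. Xirp2, an actin-binding protein, rose in males (0.73, adjusted p = 0.000471), and Nrap, which binds actin at the fiber's ends, rose in males as well (0.70, adjusted p = 0.00849). The median log2FC of the list was 0.05 in males and -0.01 in females. Fibroblast markers, of a cell type that also uses Tpm4, summed to 980 to 1480 CPM in vehicle-treated and 341 to 517 CPM in treated males, with 5 of 7 lower, and to 826 to 1910 and 550 to 1140 CPM in females, with 2 of 7 lower. Their part in the fall of Tpm4 was not tested.

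Counts of fiber type genes outside the family are to be read beside the 26.3% of all tested genes that passed in males and the 13.4% in females. Of 15 genes listed as slow fiber genes 1 rose in males (Mybph, log2FC 2.16, adjusted p = 0.000491) and 0 in females. Mybph did not separate the 14 mice low in slow genes from the other 9 (41.2 to 1410 against 155 to 1160 CPM). Ranges of 10 of the 15 listed genes overlapped between these sets, so the overlap does not single out Mybph. Whether its rise reflects slow fibers was not tested. The type 2A gene Myh2 had 0.39 and 1.12 and passed in neither sex. Of 16 fast fiber genes 3 rose and 6 fell in males, and 0 rose and 4 fell in females. Myl1, the light chain of fast myosin, fell in both sexes (log2FC -1.94, adjusted p = 9.24e-06, and -1.72, adjusted p = 0.000221), and Actn3, which anchors actin at the Z-disc of fast fibers, rose in males (1.61, adjusted p = 7.52e-06). Pgam2, an enzyme of glycolysis, fell in males (-1.07, adjusted p = 9.84e-05), and Pvalb, the calcium buffer of fast fibers, fell in males and females (-0.81, adjusted p = 0.00362, and -1.03, adjusted p = 0.00183). All are edgeR values with Benjamini-Hochberg adjustment. Of 24 fiber type regulators 2 rose and 5 fell in males and 1 rose and 2 fell in females, with Foxo1 higher in both (2.66, adjusted p = 5.11e-08, and 1.70, adjusted p = 3.51e-05) and Eya1 lower in both (-1.03, adjusted p = 0.000629, and -0.95, adjusted p = 0.00415). Of 10 tested genes of denervation and regeneration, Cdkn1a and Myog rose in males (4.43, adjusted p = 3.73e-10, and 1.76, adjusted p = 5.05e-05) and Cdkn1a rose in females (2.89, adjusted p = 6.61e-07).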

How the data were processed

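Per the labels and the study's methods, the authors checked reads with FastQC and MultiQC, aligned them to mm10 with STAR 2.7.3a and deposited raw counts per Ensembl gene from HTSeq-count 0.12.4, which counted by strand and only reads assigned to 1 gene. Reads assigned to no gene (10.7% to 15.3% per mouse) were left out. GENCODE M21 named 55480 of 55573 gene IDs. Gene counts per mouse were 20904150 to 21984477. These depths limit Tnnt2 and, in mice low in slow genes, Tnni1, Tnnt1 and Tnnc1, which had 3, 7 and 8 counts in M9.

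Counts were tested in R 4.3.3 with edgeR 4.0.16 (quasi-likelihood, TMM normalization, 1 mean per group over all 23 mice) on the 13049 genes that exceeded 20 normalized counts in 4 or more mice of a group, with Benjamini-Hochberg adjustment and a threshold of 0.01. Log2FC stands for log2 fold change, and log2 CPM used a prior count of 1. Slow to fast ratios per mouse used two-sided exact permutation tests, adjusted over 12 comparisons. Correlations used permutations within groups. Slow genes were correlated within 2 sets of mice, which the planned design did not foresee. Alternatives were DESeq2 1.42.0, limma-voom 3.58.1 with sample weights, other filters and scalings, a limit of 1 on the log2FC, each sex alone, a block on replicate numbers, and leaving out mice. The scripts were tested on simulated data. The study's methods fit DESeq2.

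All members are named, and of each other list at most 4 genes, those past the threshold in either sex with the largest change. Cell type markers follow a rule of their own (summed levels). Outside these rules, marker genes, slow fiber genes, Myh2 and Myh4 named singly were chosen after their values were seen. Members and lists were chosen with earlier results of these data known. Replicate numbers were not taken as pairs, although vehicle-treated mice with the same number resembled each other in part. Motif windows came from RefSeq (GRCm38.p6).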

Additional observations from a re-analysis of the deposited data

Results flagged for a closer look

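On the CPM scale, M6 stood apart from the other 5 corticosterone-treated males for all 4 slow genes. It had 223 CPM of Tnni1 (next mouse 75.5 CPM), 270 CPM of Tnnt1 (next 96.5 CPM), 278 CPM of Tnnc1 (next 91.6 CPM) and 326 CPM of Tpm3 (next 113 CPM). In corticosterone-treated females, F2 stood apart for Tnni1, with 288 CPM beside 84.0 CPM in the next mouse. The next mice, M10 and F8, are also among the 9 mice high in slow genes. On the log2 scale the widest gap of Tnni1 in treated males lay below M10 (7.80 in M6, 6.24 in M10 and 1.07 in M2). The flagged values came from 5 of 52 groups of values examined by Dixon's criterion on CPM. Chance alone meets it in about 1 in 20 groups of normally distributed values. Values split into a high and a low set are not so distributed, and the 4 slow genes are not independent of each other.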

How the results depend on the processing

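In males the number of members past the threshold was 0, but 1 (Tpm2) with DESeq2 and 2 (Tnnt2 and Tpm2) with limma-voom, and 0 to 1 when 1 mouse was left out. In females it was 1, but 2 (Tnnc2 and Tpm1) with DESeq2 and with limma-voom, 0 to 2 when 1 mouse was left out, and 0 with no filter, with a log2FC beyond 1, with each sex alone, without F10 and M8, and without the 5 mice high in hepatocyte markers. In treated males against treated females it was 1, but 0 with no filter, with a log2FC beyond 1, without F10 and M8 and without those 5 mice, and 0 to 1 when 1 mouse was left out. The omission of the 5 mice was chosen after seeing the data, as was the exon length of the slow shares. The cause of these changes in the number of members was not tested. The counts stood at 0 for the interaction and for vehicle-treated males against females under all settings run, including each omission of 1 mouse.

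The fit with the replicate number as a block (possible between the sexes within a treatment, not between treatments, which share no number) gave 0 members for the interaction, 0 in vehicle-treated and 1 in treated mice, and changed no call. Of 11 pairs with the same number, 7 correlated above 0.1 (r -0.377 to 0.477), and 4 of them best with their own number, so the numbers were not taken as pairs. Among vehicle-treated mice 5 of 6 pairs correlated above 0.1, and the mice high in slow genes bear the numbers 3 and 5 in both sexes. The male of a vehicle-treated pair had more Tnni2 in 6 of 6 and more Tpm1 in 0 of 6. The blocked Tnni2 difference between vehicle-treated males and females was 0.206 (edgeR adjusted p = 0.529). Whether mice with the same number were handled together was not tested. The block turned the difference between vehicle-treated males and females for Tnni1 (-0.305), Tnnt1 (-0.392) and Tnnc1 (-0.0576).

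With limma-voom, males had 0.78 for Tnni1, 0.593 for Tnnt1 and 0.0488 for Tnnc1, and females 3.19, 2.6 and 2.97 with 1.11 for Tpm3. Vehicle-treated males against females had -0.668 for Tnni1, -0.706 for Tnnt1, -0.264 for Tnnc1 and -0.0192 for Tnnt2, and treated males against females 0.083 for Tpm2. Without the 5 mice females had 0.217 for Tnni1 and 0.0947 for Tnnt1. Without F10 and M8 the slow to fast difference in males was 0.442, 0.358 and 0.00844 for troponin I, T and C. Leaving out 1 mouse gave differences of -1.46 to 0.741, -1.53 to 0.554 and -1.82 to 0.419 for troponin I, T and C in males, and of -1.74 to 0.479, -1.69 to 0.421 and -1.22 to 1.03 between vehicle-treated males and females. No value in this paragraph was past a threshold of 0.01. For the members whose direction turned when 1 mouse was left out, the log2FC ranges were in males Tnni2 -0.0224 to 0.0797, Tnnt3 -0.0283 to 0.113, and in females Tnni1 -1.22 to 0.828, Tnnt1 -0.974 to 0.76, Tnnc1 -1.36 to 0.602, Tpm3 -1.26 to 0.227, and for the interaction Tnni1 -2.6 to 0.0991, Tnnt2 -0.272 to 0.405, and between vehicle-treated sexes Tnni1 -0.67 to 1.04, Tnnt1 -0.858 to 1.05, Tnnt2 -0.214 to 0.462, Tnnc1 -0.654 to 1.26, Tnnc2 -0.0868 to 0.0234, Tpm3 -0.459 to 1.19, and between treated sexes Tnni1 -2.54 to 0.16, Tnnt2 -0.0562 to 0.46, Tnnc1 -2.55 to 0.0891, Tpm2 -0.287 to 0.0465, Tpm3 -1.81 to 0.0156.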
